A study of Mus musculus with 15 samples.

Results

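Chemokines are small secreted proteins that direct the movement of leukocytes, and their receptors are proteins of the G protein-coupled family on the surface of the cells that respond. The genes described here are the 62 genes, of 56859 in the table, whose symbols begin with Ccl, Cxcl, Xcl, Cx3cl, Ccr, Cxcr, Xcr, Cx3cr or Ackr followed by a number. They comprise 39 ligands and 23 receptors, and 49 of the 62 had enough counts to be tested, among 18038 genes tested in all. They were measured by RNA sequencing of the colon of male C57BL/6J mice, aged 6 to 10 weeks, in a chemically induced model of colitis-associated cancer. In that model azoxymethane (AOM), a carcinogen, precedes repeated drinking-water courses of dextran sulfate sodium (DSS), an agent toxic to the epithelium of the colon. The protocol gives AOM at 10 mg/kg on day 0, DSS at 2.5% on days 7 to 11, 28 to 32 and 49 to 53, and on those days either APX3330 (also written E3330) at 25 mg/kg into the peritoneum or saline.

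The 15 libraries form 5 groups of 3. The APX3330 libraries come from AOM/DSS mice given the compound, and no day is labelled for them. The saline D27, saline D48 and saline D100 libraries come from AOM/DSS mice given saline, with day 27, 48 or 100 in their descriptions. The titles of the D48 and D100 groups name cycle1 and cycle2, and those of the other groups, saline D27 and APX3330 among them, name no cycle. The Control libraries are labelled wild type with no further treatment, although the shared protocol states that every mouse received AOM, so what Control mice received is not settled here. APX3330 is set beside each saline group below, and a difference in day cannot be told apart from a difference in treatment in any of those comparisons. By the protocol's days, the saline groups also differ in how many DSS courses precede them, which cannot be told apart from day. The labels do not state that libraries of a group come from separate animals, so p-values reflect only how far these libraries differ, which may be technical.

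Receptors and ligands pair in families, and the pairing decides which leukocyte is drawn. Ligands with the ELR motif act on CXCR2 of neutrophils, the interferon-induced CXCL9, CXCL10 and CXCL11 act on CXCR3 of activated T cells and natural killer cells, and the monocyte chemoattractants act mainly on CCR2. CCL19 and CCL21 with CCR7, and CXCL13 with CXCR5, arrange T and B cells in lymphoid tissue, including the follicles of the colon. CCL25, CCL28, CCL20 and CX3CL1 are made largely by epithelium and draw lymphocytes and phagocytes to mucosal surfaces. Atypical receptors bind chemokines without the usual G protein signal and remove or transport them.

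Upstream sequences of 5 ligand genes of chromosome 5 are shown because the neutrophil ligands Cxcl1, Cxcl2 and Cxcl3 and the CXCR3 ligands Cxcl9 and Cxcl10 share short motifs there. Each is the 250 bases before the annotated start, written 5′ to 3′ on the strand of the gene, from RefSeq on GRCm38.p6. Capitals mark matches on either strand to GGGANNTTC, the core of an NF-kB motif, or to GAAANNGAA, the core of an interferon-stimulated response element (ISRE).
Cxcl1: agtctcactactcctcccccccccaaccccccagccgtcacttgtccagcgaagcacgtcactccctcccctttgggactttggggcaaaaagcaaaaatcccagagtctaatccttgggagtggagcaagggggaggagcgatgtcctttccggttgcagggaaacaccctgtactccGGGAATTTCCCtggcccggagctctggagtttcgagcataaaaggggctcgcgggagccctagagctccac
Cxcl2: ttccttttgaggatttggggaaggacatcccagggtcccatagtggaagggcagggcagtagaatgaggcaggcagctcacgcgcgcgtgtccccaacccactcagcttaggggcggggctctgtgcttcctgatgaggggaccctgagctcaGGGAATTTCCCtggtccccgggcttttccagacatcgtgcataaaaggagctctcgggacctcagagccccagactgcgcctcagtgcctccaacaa
Cxcl3: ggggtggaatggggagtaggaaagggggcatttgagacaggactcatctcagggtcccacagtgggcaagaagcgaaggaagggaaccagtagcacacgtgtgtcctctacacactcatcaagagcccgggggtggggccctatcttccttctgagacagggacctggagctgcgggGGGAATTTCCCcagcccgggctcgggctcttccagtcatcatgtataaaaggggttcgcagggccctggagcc
Cxcl9: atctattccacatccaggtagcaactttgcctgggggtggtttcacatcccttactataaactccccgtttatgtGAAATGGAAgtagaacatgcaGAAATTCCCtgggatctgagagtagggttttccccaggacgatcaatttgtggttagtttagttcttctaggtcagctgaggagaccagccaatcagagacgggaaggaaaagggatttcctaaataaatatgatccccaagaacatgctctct
Cxcl10: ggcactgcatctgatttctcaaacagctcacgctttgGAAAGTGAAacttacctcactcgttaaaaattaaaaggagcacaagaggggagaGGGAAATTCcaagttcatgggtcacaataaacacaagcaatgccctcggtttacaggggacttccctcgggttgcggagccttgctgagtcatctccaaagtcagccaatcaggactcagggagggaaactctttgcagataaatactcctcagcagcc
These windows are chr5:90890995-90891244 (plus strand), chr5:90903649-90903898 (plus), chr5:90785851-90786100 (plus), chr5:92328080-92328329 (minus) and chr5:92348890-92349139 (minus). Cxcl1, Cxcl2 and Cxcl3 hold the same run of capitals, GGGAATTTCCC, whose first base lies at position -71, -97 and -73 from the start. Cxcl9 and Cxcl10 hold a match to each motif, and the matches do not overlap in either gene. The NF-kB core was present in 3.23% of 32851 windows of this length, and in 8 of the 47 genes of the set that had a window. Besides the 5 shown, these were Ccl1, Ccr3 and Cxcr2. Of the other genes listed as neutrophil ligands, Cxcl5 had no window and that of Cxcl15 held neither the NF-kB nor the ISRE core. The ISRE core was present in 7.13% of windows and in 8 of those 47 genes, and another motif, TTCNNNGAA, in 7.02% of windows and 4 of the 47 genes. A match is a description of the letters and says nothing of whether a factor binds there.

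Some libraries held transcripts of other tissues. The summed squamous epithelium markers reached 548 CPM in saline D100 replicate 1 and 795 and 383 CPM in Control replicates 1 and 3, against 4.601 CPM in Control replicate 2. Saline D48 replicate 2 held a smaller amount, 65.3 CPM, and the remaining libraries had 0.978 to 3.90 CPM. Exocrine pancreas markers reached 28888 and 7047 CPM in saline D48 replicates 2 and 3, and skeletal muscle markers reached 1788 and 809.6 CPM in Control replicates 1 and 3. Colon epithelium markers, which define the labelled tissue, summed to between 6537 and 10154 CPM over all libraries. Total counts ranged from 13548661 to 17919613 per library, so that before TMM scaling 1 count is worth between 0.0558 and 0.0738 CPM, counts relative to a common library size. These are bulk samples, in which fewer cells of a type and less RNA per cell cannot be told apart.

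The broadest change was at saline D48. A gene is called changed here where edgeR's quasi-likelihood test gave an adjusted p below 0.05, with Benjamini-Hochberg adjustment over all 18038 genes. Against Control, 28 of the 49 rose and 2 fell at saline D48, where 13.9% of all genes tested rose and 12.7% fell. At saline D27 14 of the 49 rose and 1 fell, with 9.87% and 9.09% of all genes. At saline D100 16 of the 49 rose and 1 fell, with 11.2% and 10.4% of all genes. With APX3330 4 of the 49 rose and 1 fell, with 6.89% and 7.85% of all genes. The median log2 fold change of the 49 genes against Control was 0.79 at D27, 1.34 at D48, 0.87 at D100 and 0.20 in the APX3330 group, and the median of all genes was 0.00, 0.00, 0.00 and 0.02. These comparisons share the Control libraries.

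Where APX3330 differed from a saline group, most of the genes were lower with APX3330. In APX3330 against saline D48, 2 of the 49 rose and 23 fell, where 9.27% of all genes tested rose and 9.85% fell. Against saline D27, 1 of the 49 rose and 4 fell with APX3330, with 4.82% and 4.26% of all genes. Against saline D100, none of the 49 passed with edgeR, with 0.36% of all genes higher and 0.194% lower. In that comparison 13 of the 49, and 2303 of the 18038 genes tested, had an unadjusted p below 0.05. The DESeq2 test called 5 of the 49 there. Over all genes it called 428, where edgeR called 100. Median log2 fold changes were -0.62, -1.21 and -0.54 against saline D27, D48 and D100, and those of all genes were -0.01, -0.01 and 0.00.

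Between saline days, Ccr1 alone rose in saline D48 against saline D27 and no member fell, with 0.832% and 0.599% of all genes. Cx3cl1 alone fell in saline D100 against saline D27 and no member rose, with 1.61% and 1.91% of all genes lower and higher. In saline D100 against saline D48, 1 of the 49 rose and 8 fell, with 7.3% and 6.51% of all genes. The F test over the 5 groups called 31 of the 49, and 36.9% of all genes.

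**Figure D1:**
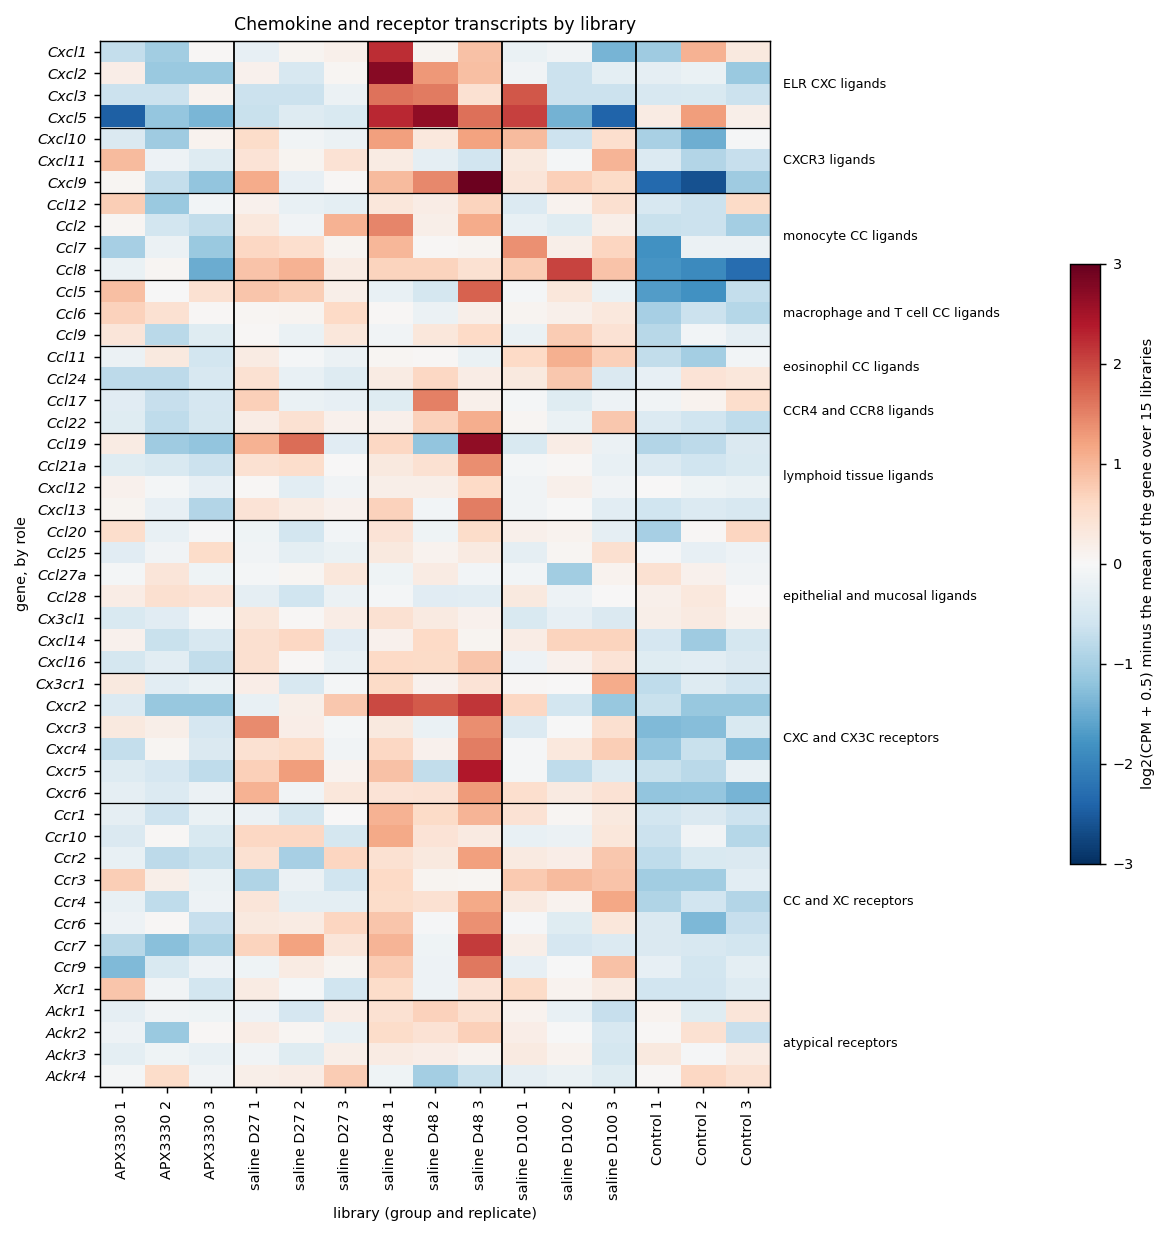
Heat map of the tested genes reported here, ordered by role (rows), in the 15 libraries (columns, grouped as APX3330, saline D27, saline D48, saline D100 and Control, separated by lines). Colour is log2(CPM + 0.5) minus the mean of the gene over the 15 libraries. Red fills the saline D48 columns most often, and saline D48 replicate 3 holds the highest value of Cxcl9, Ccl19, Ccr7 and Cxcr5.

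The counts of calls depended on single libraries, among the members and among all genes. For saline D27 against Control, the count of 15 became 6 without saline D27 replicate 1 or Control replicate 2 and 8 without saline D27 replicate 2 or Control replicate 1. For saline D100 against Control, the count of 17 became 11 without saline D100 replicate 3 or Control replicate 1. For APX3330 against Control, the count of 5 became 2 without APX3330 replicate 1, APX3330 replicate 2, Control replicate 1 or Control replicate 2 and 3 without APX3330 replicate 3. For APX3330 against saline D27, the count of 5 became 2 without APX3330 replicate 2, APX3330 replicate 3 or saline D27 replicate 1 and 3 without saline D27 replicate 2. For APX3330 against saline D48, the count of 25 became 10 without APX3330 replicate 2 and 15 without APX3330 replicate 3 or saline D48 replicate 3. For saline D100 against saline D48, the count of 9 became 1 without saline D100 replicate 2, 2 without saline D100 replicate 3 and 3 without saline D48 replicate 1 or saline D48 replicate 3. The single call of saline D48 against saline D27 became 0 without saline D27 replicate 2 or saline D48 replicate 3 and 2 without saline D48 replicate 1, and that of saline D100 against saline D27 became 0 without saline D27 replicate 1, saline D100 replicate 1 or saline D100 replicate 3. Over all genes, leaving out 1 library gave 1775 to 3309 calls, against 3419 with all libraries, for saline D27 against Control. It gave 2621 to 3428, against 3893, for saline D100 against Control and 1502 to 2419, against 2658, for APX3330 against Control. For APX3330 it gave 523 to 2035, against 1637, relative to saline D27 and 2184 to 3211, against 3449, relative to saline D48. Between saline days it gave 67 to 249, against 258, for D48 against D27, 92 to 891, against 635, for D100 against D27 and 1407 to 2065, against 2491, for D100 against D48.

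Leaving out saline D100 replicate 1 and Control replicates 1 and 3, the 3 libraries with the most squamous transcripts, but keeping saline D48 replicate 2, leaves 1 Control library, which is then assumed to vary like the other groups. Of the calls against Control, 0 of 15 at D27, 7 of 30 at D48, 4 of 17 at D100 and 0 of 5 in the APX3330 group then still passed. Calls over all genes also fell, to 404 against 3419 at D27, 1278 against 4802 at D48, 1005 against 3893 at D100 and 424 against 2658 in the APX3330 group. Those at D48 were Cxcl10, Cxcl16, Cxcr2, Cxcr6, Ackr4, Ccr1 and Ccr6, and those at D100 were Cxcl14, Ccl11, Ccl8 and Ccr3. The median size of the called changes was 1.43 at D27, 1.92 at D48, 1.42 at D100 and 1.21 in the APX3330 group on the log2 scale, against 1.55, 1.84, 1.44 and 1.34 with all libraries. Leaving out saline D48 replicates 2 and 3, which hold pancreas transcripts, leaves saline D48 replicate 1 alone, likewise assumed to vary as the other groups do. In that fit there remained 17 of the 30 calls of saline D48 against Control, with a median size of 1.61 against 1.84. There also remained 11 of the 25 calls of APX3330 against saline D48, again with 1 saline D48 library, with a median size of 1.14 against 1.44. Over all genes the calls were 1628 against 4802 for saline D48 against Control and 952 against 3449 for APX3330 against saline D48. None of the 108 called changes turned its direction in any of these fits.

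**Figure D2:**
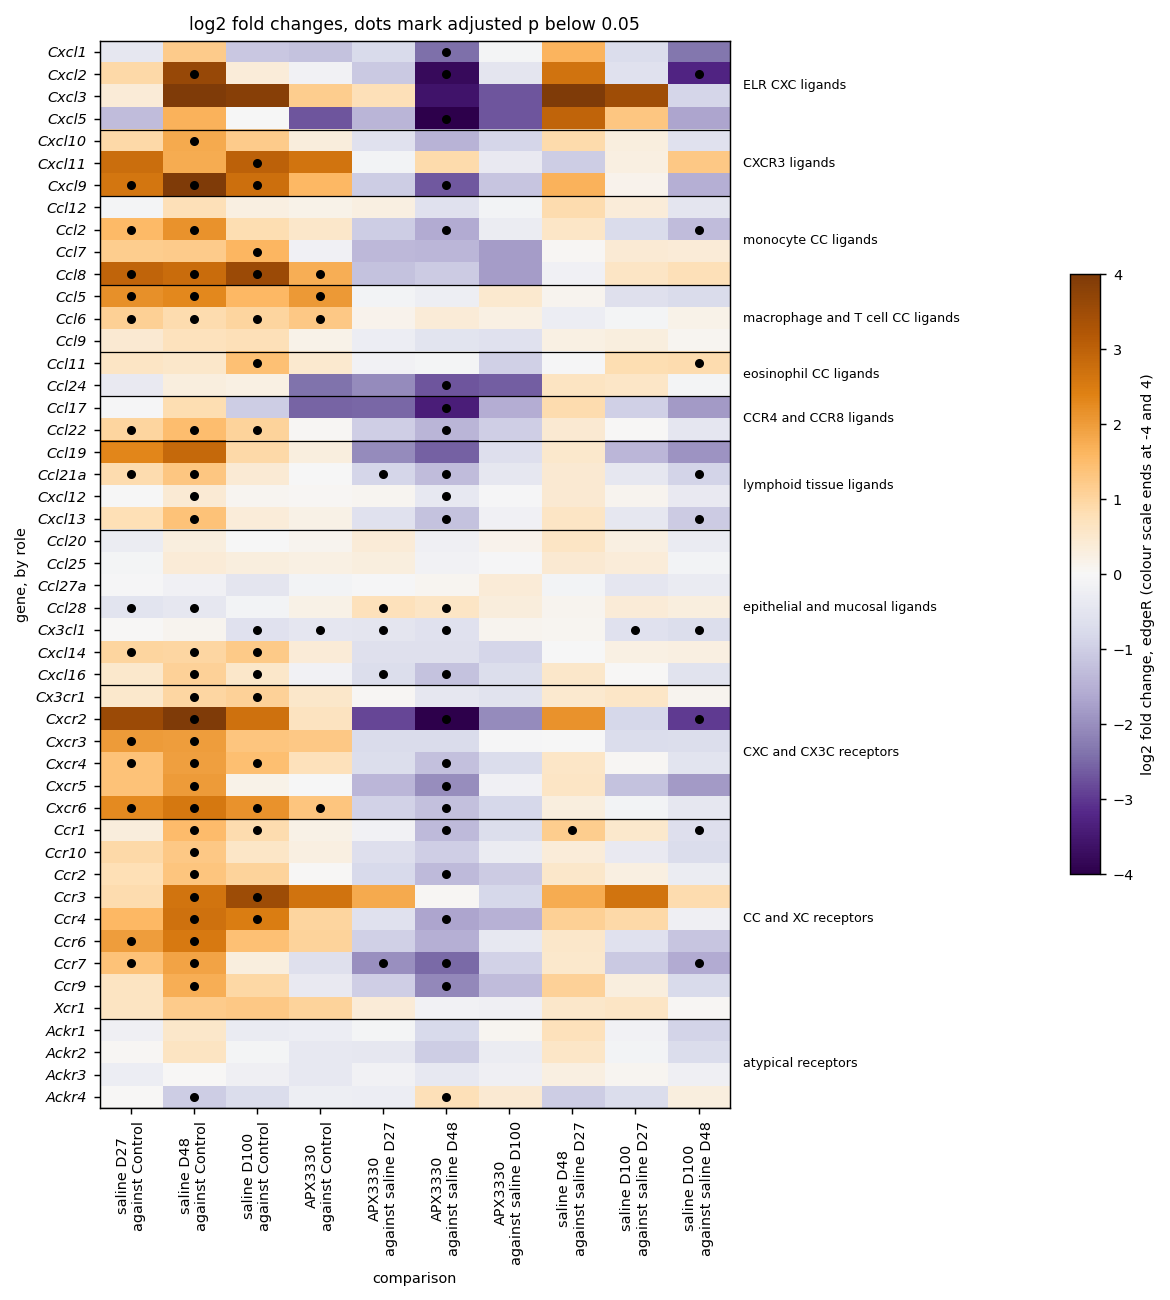
Log2 fold changes from edgeR of the tested genes reported here (rows, by role) in the 10 comparisons (columns), with a dot where the adjusted p was below 0.05. Orange is higher and purple lower in the group named first. Dots fill the columns of saline D48 against Control and APX3330 against saline D48 most, and the column of APX3330 against saline D100 has none.

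Cxcl2 and the neutrophil receptor Cxcr2 rose at saline D48, and Cxcl1, Cxcl2, Cxcl5 and Cxcr2 fell in APX3330 against saline D48. Of the 4 tested ligands, 1 rose and 0 fell at saline D48 against Control, while 0 rose and 3 fell in APX3330 against saline D48. Cxcl1, a neutrophil attractant induced in epithelium and stroma by inflammation, had 0.54, 0.333 and 1.27 CPM in the APX3330 libraries, 0.948, 1.31 and 1.43 at saline D27, 7.54, 1.33 and 2.67 at saline D48 and 0.989, 1.09 and 0.15 at saline D100, against 0.322, 3.07 and 1.598 CPM in Control. For Cxcl1, each group overlapped Control and the APX3330 libraries lay below all of saline D48. The highest Cxcl1 library was saline D48 replicate 1. Cxcl1 fell in APX3330 against saline D48 (log2 fold change -2.41, SE 0.80, edgeR adjusted p = 0.0473). Cxcl1 lost the APX3330 against D48 call without APX3330 replicates 1 or 2 or saline D48 replicates 1 or 3 (adjusted p = 0.0651 to 0.213). Cxcl1 had log2 fold changes between -2.34 and 1.64 in the comparisons where it did not pass. Cxcl2, a neutrophil attractant made chiefly by myeloid cells, had 0.743, 0 and 0 CPM in the APX3330 libraries, 0.669, 0.275 and 0.62 at saline D27, 6.68, 2.13 and 1.51 at saline D48 and 0.495, 0.192 and 0.376 at saline D100, against 0.386, 0.438 and 0 CPM in Control. For Cxcl2, all saline D48 libraries lay above all Control libraries and the APX3330 libraries lay below all of saline D48. The highest Cxcl2 library was saline D48 replicate 1. Cxcl2 rose against Control at saline D48 (log2 fold change 3.62, SE 1.00, edgeR adjusted p = 0.0144). Cxcl2 fell in APX3330 against saline D48 (log2 fold change -3.76, SE 1.01, edgeR adjusted p = 0.0176) and in saline D100 against saline D48 (-3.26, SE 0.97, adjusted p = 0.0371). Cxcl2 lost the D48 against Control call without saline D48 replicate 1 (adjusted p = 0.0649), the APX3330 against D48 call without APX3330 replicates 2 or 3 or saline D48 replicate 1 (adjusted p = 0.0545 to 0.0723) and the D100 against D48 call without saline D48 replicate 1 or any 1 saline D100 replicate (adjusted p = 0.0768 to 0.151). Cxcl2 had log2 fold changes between -1.07 and 2.68 in the comparisons where it did not pass.

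Cxcl5, an epithelial neutrophil attractant, had 0.27, 1.4003 and 1.14 CPM in the APX3330 libraries, 2.17, 2.75 and 2.605 at saline D27, 19.98, 26.2 and 12.9 at saline D48 and 16.96, 1.09 and 0.301 at saline D100, against 4.503, 9.57 and 4.33 CPM in Control. For Cxcl5, all saline D48 libraries lay above all Control libraries, all APX3330 and saline D27 libraries lay below all Control libraries and the APX3330 libraries lay below all of saline D27 and saline D48. The highest Cxcl5 library was saline D48 replicate 2. Cxcl5 fell in APX3330 against saline D48 (log2 fold change -4.38, SE 1.18, edgeR adjusted p = 0.0267). Cxcl5 lost the APX3330 against D48 call without any 1 APX3330 replicate or saline D48 replicates 1 or 2 (adjusted p = 0.0503 to 0.0771). Cxcl5 had log2 fold changes between -2.69 and 2.97 in the comparisons where it did not pass. Saline D100 replicate 1, which holds squamous transcripts, stood far above the other saline D100 libraries. Cxcl3, a further ligand of CXCR2, ranged over 0 to 0.335 CPM in the APX3330 libraries, 0 to 0.186 at saline D27, 0.581 to 1.92 at saline D48 and 0 to 2.33 at saline D100, against 0 to 0.073 CPM in Control. Cxcl3 passed in none of the 10 comparisons, the smallest edgeR adjusted p being 0.0519 for saline D48 against Control. The highest Cxcl3 values were in saline D100 replicate 1 and saline D48 replicates 1 and 2. Cxcl3 had 66 counts at saline D48 against 2 in Control, a ratio of 30.1 with a counting interval of 8.003 to 254 that covers counting error only.

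Cxcr2, the receptor of these ligands on neutrophils, had 0.338, 0 and 0 CPM in the APX3330 libraries, 0.446, 0.757 and 1.43 at saline D27, 3.84, 3.47 and 4.41 at saline D48 and 1.201, 0.256 and 0 at saline D100, against 0.193, 0 and 0 CPM in Control. For Cxcr2, all saline D27 and saline D48 libraries lay above all Control libraries and the APX3330 libraries lay below all of saline D27 and saline D48. The highest Cxcr2 library was saline D48 replicate 3. Cxcr2 rose against Control at saline D48 (56.5 times the level, counting interval 19.04 to 276, from 186 counts against 3, edgeR adjusted p = 0.00226). Cxcr2 fell in APX3330 against saline D48 (log2 fold change -5.03, SE 1.09, edgeR adjusted p = 0.0053) and in saline D100 against saline D48 (-2.98, SE 0.90, adjusted p = 0.0399). Cxcr2 lost the D100 against D48 call without any 1 saline D48 replicate or saline D100 replicates 2 or 3 (adjusted p = 0.0606 to 0.134). In 2 comparisons that did not pass, Cxcr2 had 12.4 times the Control level at saline D27 (counting interval 3.96 to 62.5, 42 counts against 3, edgeR adjusted p = 0.057) and 6.86 times at saline D100 (2.05 to 35.9, 21 counts against 3, adjusted p = 0.161). The other Cxcr2 comparisons that did not pass, apart from APX3330 against Control, had log2 fold changes between -2.87 and 2.15. The summed neutrophil markers, 10 genes of which 8 could be tested and 0 were at 0 in all libraries, ranged over 31.1 to 70.3 CPM with APX3330, 115 to 129 at saline D27, 152 to 168 at saline D48 and 58.3 to 89.4 at saline D100, against 105 to 143 CPM in Control. The sum weighs abundant genes most and did not follow the median of the tested markers. Relative to Control, that median log2 fold change was 3.51 for saline D48 and 1.40 for saline D27. It was 0.98 for saline D100 and 0.53 for APX3330. Of the 8, 5 rose and 0 fell at saline D48 against Control, among them Csf3r and S100a8, and 6 fell in APX3330 against saline D48. At saline D27, 3 of the 8 rose and 0 fell against Control. At saline D100 and with APX3330, 2 rose against Control, Csf3r and Retnlg. There 1 fell, Ly6g, a surface antigen of mouse neutrophils. The part of neutrophil numbers in the values of these genes was not tested.

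Cxcl9 was above Control at all 3 saline days, Cxcl10 rose at saline D48 and Cxcl11 at saline D100. Of the 3, 1 rose and 0 fell at D27, 2 rose and 0 fell at D48 and 2 rose and 0 fell at D100 against Control. Cxcl9, induced by interferon gamma, had 6.89, 3.801 and 2.61 CPM in the APX3330 libraries, 14.7, 5.51 and 6.698 at saline D27, 13.2, 18.7 and 53.4 at saline D48 and 8.62, 11.03 and 10.01 at saline D100, against 0.901, 0.657 and 2.86 CPM in Control. For Cxcl9, all saline D27, saline D48 and saline D100 libraries lay above all Control libraries and the APX3330 libraries lay below all of saline D48 and saline D100. The highest Cxcl9 library was saline D48 replicate 3. Cxcl9 rose against Control at saline D27 (log2 fold change 2.60, SE 0.71, edgeR adjusted p = 0.0274), at saline D48 (4.26, SE 0.72, adjusted p = 0.00161) and at saline D100 (2.73, SE 0.71, adjusted p = 0.0191). Cxcl9 fell in APX3330 against saline D48 (log2 fold change -2.68, SE 0.65, edgeR adjusted p = 0.0159). Cxcl9 lost the D27 against Control call without saline D27 replicate 1 or Control replicates 1 or 2 (adjusted p = 0.089 to 0.0999), the D100 against Control call without Control replicates 1 or 2 (adjusted p = 0.0651 to 0.079) and the APX3330 against D48 call without APX3330 replicates 2 or 3 (adjusted p = 0.0601 to 0.0626). Cxcl9 had log2 fold changes between -1.53 and 1.66 in the comparisons where it did not pass. Cxcl10, induced by type I and type II interferon, had 4.39, 2.67 and 6.63 CPM in the APX3330 libraries, 9.26, 5.72 and 5.396 at saline D27, 14.95, 7.797 and 14.8 at saline D48 and 12.4, 3.78 and 8.95 at saline D100, against 2.89, 1.899 and 5.99 CPM in Control. For Cxcl10, all saline D48 libraries lay above all Control libraries and the APX3330 libraries lay below all of saline D48. The highest Cxcl10 library was saline D48 replicate 1. Cxcl10 rose against Control at saline D48 (log2 fold change 1.79, SE 0.50, edgeR adjusted p = 0.0175). Cxcl10 lost the D48 against Control call without saline D48 replicate 3 or Control replicates 1 or 2 (adjusted p = 0.0565 to 0.0719). Cxcl10 had log2 fold changes between -1.46 and 1.21 in the comparisons where it did not pass. Cxcl11, annotated as a polymorphic pseudogene in GENCODE M21, ranged over 0.201 to 1.28 CPM in the APX3330 libraries, 0.482 to 0.744 at saline D27, 0.116 to 0.595 at saline D48 and 0.385 to 1.35 at saline D100, against 0 to 0.193 CPM in Control. Cxcl11 rose against Control at saline D100 (log2 fold change 3.02, SE 0.97, edgeR adjusted p = 0.0319). Cxcl11 lost the D100 against Control call without saline D100 replicate 3 or Control replicates 2 or 3 (adjusted p = 0.0958 to 0.142). Cxcl11 had log2 fold changes between -1.003 and 2.76 in the comparisons where it did not pass.

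Cxcr3, their receptor on activated T cells and natural killer cells, had 3.38, 3.07 and 1.74 CPM in the APX3330 libraries, 7.97, 3.17 and 2.54 at saline D27, 3.37, 2.27 and 7.897 at saline D48 and 1.91, 2.63 and 3.91 at saline D100, against 0.772, 0.803 and 1.797 CPM in Control. For Cxcr3, all saline D27, saline D48 and saline D100 libraries lay above all Control libraries. The highest Cxcr3 library was saline D27 replicate 1. Cxcr3 rose against Control at saline D27 (log2 fold change 2.02, SE 0.55, edgeR adjusted p = 0.0181) and at saline D48 (2.00, SE 0.55, adjusted p = 0.0131). Cxcr3 lost the D27 against Control call without saline D27 replicate 1 or Control replicates 1 or 2 (adjusted p = 0.0721 to 0.104) and the D48 against Control call without saline D48 replicate 3 or Control replicates 1 or 2 (adjusted p = 0.0567 to 0.0855). Cxcr3 had log2 fold changes between -0.75 and 1.31 in the comparisons where it did not pass. The summed T cell markers, 7 genes of which 7 could be tested and 0 were at 0 in all libraries, ranged over 32.1 to 42.7 CPM with APX3330, 39.3 to 68.5 at saline D27, 49.05 to 122 at saline D48 and 43.7 to 49.7 at saline D100, against 12.1 to 16.3 CPM in Control. All 7 rose at saline D27 and at saline D48 against Control, 5 rose at saline D100 and 5 with APX3330, and 4 fell in APX3330 against saline D48. The summed cytotoxic lymphocyte markers, 7 genes of which 4 could be tested and 0 were at 0 in all libraries, ranged over 8.98 to 12.2 CPM with APX3330, 11.5 to 18.6 at saline D27, 10.1 to 29.2 at saline D48 and 8.34 to 18.97 at saline D100, against 2.99 to 4.89 CPM in Control. Of the 4 tested, 2 rose at D27, 4 at D48, 1 at D100 and 1 in the APX3330 group against Control, each time including Gzmb. What T and cytotoxic cell numbers contribute to Cxcr3 and its ligands was not tested.

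Among the 4 genes listed as monocyte attractants, Ccl8 had the largest change against Control and rose in all 4 groups. The list places it beside ligands of CCR2, although in the mouse it acts on CCR8. Of the 4 genes, 2 rose and 0 fell at D27, 2 rose and 0 fell at D48, 2 rose and 0 fell at D100 and 1 rose and 0 fell in the APX3330 group against Control. Ccl8 was 1 of them each time, beside Ccl2 at D27 and D48, beside Ccl7 at D100 and alone in the APX3330 group. Ccl8, which in the mouse acts on CCR8 and is made by tissue macrophages, had 9.59, 11.4 and 3.62 CPM in the APX3330 libraries, 20.3, 23.1 and 13.1 at saline D27, 17.7, 17.7 and 15.2 at saline D48 and 19.1, 46.2 and 20.5 at saline D100, against 2.89, 2.56 and 1.86 CPM in Control. For Ccl8, all APX3330, saline D27, saline D48 and saline D100 libraries lay above all Control libraries and the APX3330 libraries lay below all of saline D27, saline D48 and saline D100. The highest Ccl8 library was saline D100 replicate 2. Ccl8 rose against Control at saline D27 (log2 fold change 2.95, SE 0.46, edgeR adjusted p = 0.00136), at saline D48 (2.78, SE 0.46, adjusted p = 0.00106), at saline D100 (3.55, SE 0.47, adjusted p = 0.000256) and with APX3330 (1.75, SE 0.47, adjusted p = 0.026). Ccl8 lost the APX3330 against Control call without APX3330 replicates 1 or 2 or any 1 Control replicate (adjusted p = 0.0639 to 0.0903). Ccl8 had log2 fold changes between -1.80 and 0.77 in the comparisons where it did not pass. Ccl2, the main attractant of CCR2 monocytes, had 2.702, 1.6003 and 1.34 CPM in the APX3330 libraries, 3.29, 2.34 and 5.77 at saline D27, 7.87, 2.93 and 6.16 at saline D48 and 2.12, 1.86 and 2.93 at saline D100, against 1.42, 1.46 and 0.999 CPM in Control. For Ccl2, all saline D27, saline D48 and saline D100 libraries lay above all Control libraries and the APX3330 libraries lay below all of saline D48. The highest Ccl2 library was saline D48 replicate 1. Ccl2 rose against Control at saline D27 (log2 fold change 1.55, SE 0.42, edgeR adjusted p = 0.0152) and at saline D48 (2.13, SE 0.42, adjusted p = 0.00125). Ccl2 fell in APX3330 against saline D48 (log2 fold change -1.58, SE 0.41, edgeR adjusted p = 0.0112) and in saline D100 against saline D48 (-1.30, SE 0.40, adjusted p = 0.0385). Ccl2 lost the D27 against Control call without saline D27 replicate 3 or Control replicate 3 (adjusted p = 0.0657 to 0.0805), the APX3330 against D48 call without APX3330 replicates 2 or 3 or saline D48 replicate 1 (adjusted p = 0.0501 to 0.0549) and the D100 against D48 call without saline D48 replicates 1 or 3 or any 1 saline D100 replicate (adjusted p = 0.0573 to 0.159). Ccl2 had log2 fold changes between -1.01 and 0.83 in the comparisons where it did not pass.

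Ccl7, a ligand of CCR2 and CCR3, had 1.08, 2.27 and 0.938 CPM in the APX3330 libraries, 4.29, 3.92 and 2.79 at saline D27, 5.76, 2.73 and 2.79 at saline D48 and 7.56, 3.01 and 4.36 at saline D100, against 0.386, 2.26 and 2.26 CPM in Control. For Ccl7, all saline D27, saline D48 and saline D100 libraries lay above all Control libraries and the APX3330 libraries lay below all of saline D27, saline D48 and saline D100. The highest Ccl7 library was saline D100 replicate 1. Ccl7 rose against Control at saline D100 (log2 fold change 1.61, SE 0.53, edgeR adjusted p = 0.0406). Ccl7 lost the D100 against Control call without saline D100 replicates 1 or 3 or Control replicates 1 or 3 (adjusted p = 0.0514 to 0.158). Ccl7 had log2 fold changes between -1.79 and 1.20 in the comparisons where it did not pass. Ccl12, a mouse ligand of CCR2 that lies beside Ccl8 on the chromosome, ranged over 0.0667 to 1.55 CPM in the APX3330 libraries, 0.496 to 0.836 at saline D27, 0.933 to 1.45 at saline D48 and 0.424 to 1.204 at saline D100, against 0.292 to 1.33 CPM in Control. Ccl12 passed in none of the 10 comparisons, with log2 fold changes between -0.59 and 0.86 by edgeR. Ccr2, the receptor through which monocytes leave the bone marrow, had 8.04, 5.27 and 5.69 CPM in the APX3330 libraries, 13.2, 4.48 and 14.9 at saline D27, 13.2, 11.6 and 22.8 at saline D48 and 11.4, 10.9 and 16.8 at saline D100, against 5.34, 6.72 and 6.79 CPM in Control. For Ccr2, all saline D48 and saline D100 libraries lay above all Control libraries and the APX3330 libraries lay below all of saline D48 and saline D100. The highest Ccr2 library was saline D48 replicate 3. Ccr2 rose against Control at saline D48 (log2 fold change 1.34, SE 0.38, edgeR adjusted p = 0.0169). Ccr2 fell in APX3330 against saline D48 (log2 fold change -1.32, SE 0.37, edgeR adjusted p = 0.0242). Ccr2 lost the D48 against Control call without saline D48 replicate 3 or Control replicate 1 (adjusted p = 0.0681 to 0.077) and the APX3330 against D48 call without APX3330 replicates 2 or 3 or saline D48 replicate 3 (adjusted p = 0.0836 to 0.0993). Ccr2 had log2 fold changes between -1.04 and 1.05 in the comparisons where it did not pass. The summed monocyte and macrophage markers, 10 genes of which 10 could be tested and 0 were at 0 in all libraries, ranged over 498 to 682 CPM with APX3330, 741 to 1001 at saline D27, 1062 to 1437 at saline D48 and 748 to 973 at saline D100, against 350.3 to 483 CPM in Control. Of the 10, 7 rose at D27, 9 at D48, 9 at D100 and 3 in the APX3330 group against Control, C1qb in all of these, and 7 fell in APX3330 against saline D48. The share of macrophage numbers in the levels of these ligands and receptors was not tested.

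**Figure D3:**
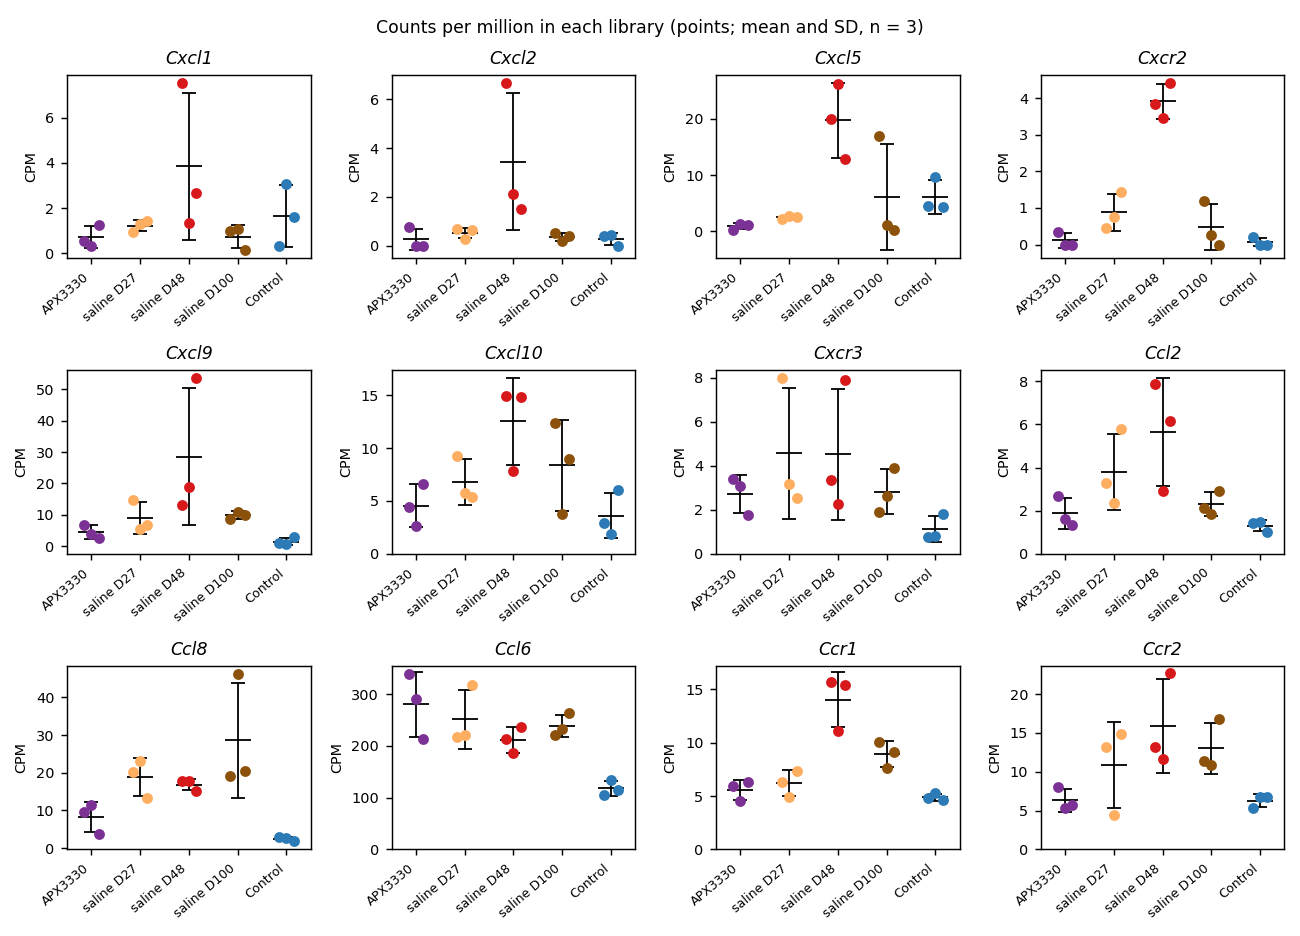
CPM of 12 genes in every library (points), with the mean (long dash) and SD (bars) of 3 libraries per group, for APX3330, saline D27, saline D48, saline D100 and Control. Cxcr2 and Ccr1 show the 3 saline D48 libraries above every other library, Ccl6 shows every library of the other groups above Control, and the SD of Cxcl9 at saline D48 is wide, with replicate 3 at 53.4 CPM.

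Ccl6, like Ccl8, rose against Control in all 4 other groups. Of the 3 tested ligands of macrophage and T cell origin, 2 rose and 0 fell at D27, 2 rose and 0 fell at D48, 1 rose and 0 fell at D100 and 2 rose and 0 fell in the APX3330 group. Ccl6, a mouse ligand of CCR1 made by myeloid cells, had 338, 290.1 and 214 CPM in the APX3330 libraries, 217, 221 and 318 at saline D27, 213, 186 and 236 at saline D48 and 221, 233 and 263 at saline D100, against 105, 134 and 115 CPM in Control. For Ccl6, all APX3330, saline D27, saline D48 and saline D100 libraries lay above all Control libraries. The highest Ccl6 library was APX3330 replicate 1. Ccl6 rose against Control at saline D27 (log2 fold change 1.10, SE 0.17, edgeR adjusted p = 0.000737), at saline D48 (0.85, SE 0.17, adjusted p = 0.00216), at saline D100 (1.02, SE 0.17, adjusted p = 0.000682) and with APX3330 (1.25, SE 0.17, adjusted p = 0.000271). Ccl6 passed in those comparisons whichever 1 library was left out. Ccl6 had log2 fold changes between -0.25 and 0.41 in the comparisons where it did not pass. Ccl5, a product of T cells and natural killer cells that acts on CCR1 and CCR3 among others, had 11.1, 5.601 and 7.905 CPM in the APX3330 libraries, 10.5, 9.85 and 6.45 at saline D27, 4.76, 3.798 and 20.4 at saline D48 and 5.37, 7.31 and 4.89 at saline D100, against 1.42, 1.24 and 3.26 CPM in Control. For Ccl5, all APX3330, saline D27, saline D48 and saline D100 libraries lay above all Control libraries. The highest Ccl5 library was saline D48 replicate 3. Ccl5 rose against Control at saline D27 (log2 fold change 2.17, SE 0.62, edgeR adjusted p = 0.0289), at saline D48 (2.29, SE 0.62, adjusted p = 0.0163) and with APX3330 (2.05, SE 0.62, adjusted p = 0.0434). Ccl5 lost the D27 against Control call without saline D27 replicates 1 or 2 or Control replicates 1 or 2 (adjusted p = 0.0744 to 0.107), the D48 against Control call without saline D48 replicate 3 or Control replicates 1 or 2 (adjusted p = 0.0525 to 0.0681) and the APX3330 against Control call without any 1 APX3330 replicate or Control replicates 1 or 2 (adjusted p = 0.0561 to 0.152). Ccl5 had log2 fold changes between -0.72 and 1.56 in the comparisons where it did not pass. Ccl9, a mouse ligand of CCR1 beside Ccl6 on the chromosome, had 17.4, 7.401 and 10.4 CPM in the APX3330 libraries, 13.8, 11.6 and 17.1 at saline D27, 12.4, 16.99 and 20.6 at saline D48 and 11.6, 22.9 and 18.1 at saline D100, against 7.27, 12.6 and 11.1 CPM in Control. For Ccl9, each group overlapped Control. The highest Ccl9 library was saline D100 replicate 2. Ccl9 passed in none of the 10 comparisons, with log2 fold changes between -0.58 and 0.77 by edgeR.

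Ccr1, a receptor of monocytes and neutrophils, had 5.94, 4.53 and 6.297 CPM in the APX3330 libraries, 6.36, 4.89 and 7.32 at saline D27, 15.7, 11.1 and 15.4 at saline D48 and 10.03, 7.63 and 9.11 at saline D100, against 4.82, 5.26 and 4.59 CPM in Control. For Ccr1, all saline D48 and saline D100 libraries lay above all Control libraries and the APX3330 libraries lay below all of saline D48 and saline D100. The highest Ccr1 library was saline D48 replicate 1. Ccr1 rose against Control at saline D48 (log2 fold change 1.52, SE 0.22, edgeR adjusted p = 9.11e-05) and at saline D100 (0.87, SE 0.22, adjusted p = 0.00821). Ccr1 rose in saline D48 against saline D27 (log2 fold change 1.18, SE 0.21, edgeR adjusted p = 0.0107). Ccr1 fell in APX3330 against saline D48 (log2 fold change -1.33, SE 0.22, edgeR adjusted p = 0.000506) and in saline D100 against saline D48 (-0.66, SE 0.21, adjusted p = 0.0455). Ccr1 lost the D48 against D27 call without saline D27 replicate 2 or saline D48 replicate 3 (adjusted p = 0.0521 to 0.0591) and the D100 against D48 call without saline D48 replicates 1 or 3 or any 1 saline D100 replicate (adjusted p = 0.057 to 0.158). Ccr1 had log2 fold changes between -0.67 and 0.52 in the comparisons where it did not pass.

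Ccl11 rose at saline D100, against both Control and saline D48. Of the 2 tested ligands of CCR3, 1 rose and 0 fell at saline D100 against Control. Ccl11, or eotaxin, made by stroma and macrophages, had 9.26, 13.002 and 7.101 CPM in the APX3330 libraries, 12.6, 10.2 and 9.303 at saline D27, 10.98, 10.9 and 9.12 at saline D48 and 16.2, 22.8 and 17.8 at saline D100, against 6.18, 4.97 and 9.92 CPM in Control. For Ccl11, all saline D100 libraries lay above all Control libraries and the APX3330 libraries lay below all of saline D100. The highest Ccl11 library was saline D100 replicate 2. Ccl11 rose against Control at saline D100 (log2 fold change 1.43, SE 0.25, edgeR adjusted p = 0.000578). Ccl11 rose in saline D100 against saline D48 (log2 fold change 0.87, SE 0.25, edgeR adjusted p = 0.0242). Ccl11 lost the D100 against D48 call without saline D48 replicates 1 or 3 or saline D100 replicates 2 or 3 (adjusted p = 0.0542 to 0.108). Ccl11 had log2 fold changes between -0.95 and 0.82 in the comparisons where it did not pass. Ccl24, a further eotaxin, ranged over 0.0667 to 0.201 CPM in the APX3330 libraries, 0.248 to 0.836 at saline D27, 0.639 to 1.0 at saline D48 and 0.226 to 1.22 at saline D100, against 0.322 to 0.803 CPM in Control. Ccl24 fell in APX3330 against saline D48 (log2 fold change -2.69, SE 0.81, edgeR adjusted p = 0.0262). Ccl24 lost the APX3330 against D48 call without APX3330 replicates 1 or 2 or saline D48 replicate 2 (adjusted p = 0.0721 to 0.0922). Ccl24 had log2 fold changes between -2.61 and 0.65 in the comparisons where it did not pass. Ccr3, the eotaxin receptor of eosinophils, had 1.22, 0.667 and 0.402 CPM in the APX3330 libraries, 0.0558, 0.413 and 0.186 at saline D27, 1.06, 0.6 and 0.581 at saline D48 and 1.27, 1.47 and 1.35 at saline D100, against 0, 0 and 0.333 CPM in Control. For Ccr3, all APX3330, saline D48 and saline D100 libraries lay above all Control libraries and the APX3330 libraries lay below all of saline D100. The highest Ccr3 library was saline D100 replicate 2. Ccr3 rose against Control at saline D48 (log2 fold change 2.64, SE 0.90, edgeR adjusted p = 0.0366) and at saline D100 (3.51, SE 0.88, adjusted p = 0.00777). Ccr3 lost the D48 against Control call without saline D48 replicates 1 or 3 or Control replicates 1 or 2 (adjusted p = 0.0525 to 0.124). Ccr3 had log2 fold changes between -0.84 and 2.67 in the comparisons where it did not pass. The summed eosinophil markers, 5 genes of which 3 could be tested and 0 were at 0 in all libraries, ranged over 2.03 to 3.801 CPM with APX3330, 3.85 to 6.06 at saline D27, 3.599 to 6.68 at saline D48 and 3.91 to 5.79 at saline D100, against 1.16 to 2.53 CPM in Control. Siglecf rose at D27 and D100 and Prg2 at D48 against Control, and Ear1 had at most 3 counts in all. Their relation to Ccl11 and Ccr3 was not tested.

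In the CCR4 axis, used by regulatory and type 2 helper T cells, Ccl22 rose at all 3 saline days and Ccr4 at saline D48 and D100, while Ccl17 did not pass against Control. Ccl22, made by dendritic cells and macrophages, had 2.16, 1.53 and 1.88 CPM in the APX3330 libraries, 3.51, 4.2004 and 3.23 at saline D27, 3.31, 4.998 and 6.79 at saline D48 and 3.04, 2.4999 and 5.49 at saline D100, against 2.06, 1.75 and 1.53 CPM in Control. For Ccl22, all saline D27, saline D48 and saline D100 libraries lay above all Control libraries and the APX3330 libraries lay below all of saline D27, saline D48 and saline D100. The highest Ccl22 library was saline D48 replicate 3. Ccl22 rose against Control at saline D27 (log2 fold change 1.03, SE 0.34, edgeR adjusted p = 0.0421), at saline D48 (1.50, SE 0.34, adjusted p = 0.00349) and at saline D100 (1.04, SE 0.34, adjusted p = 0.0372). Ccl22 fell in APX3330 against saline D48 (log2 fold change -1.44, SE 0.34, edgeR adjusted p = 0.00691). Ccl22 lost the D27 against Control call without any 1 saline D27 replicate or any 1 Control replicate (adjusted p = 0.0517 to 0.145) and the D100 against Control call without saline D100 replicate 3 or any 1 Control replicate (adjusted p = 0.0618 to 0.249). Ccl22 had log2 fold changes between -0.98 and 0.47 in the comparisons where it did not pass. Ccl17, a ligand of CCR4, ranged over 0 to 0.135 CPM in the APX3330 libraries, 0.186 to 0.836 at saline D27, 0.132 to 1.799 at saline D48 and 0.128 to 0.283 at saline D100, against 0.257 to 0.666 CPM in Control. Ccl17 fell in APX3330 against saline D48 (0.0867 times the level, counting interval 0.0171 to 0.275, from 3 counts against 36, edgeR adjusted p = 0.0355). Ccl17 lost the APX3330 against D48 call without APX3330 replicates 2 or 3 or saline D48 replicate 2 (adjusted p = 0.0897 to 0.293). Ccl17 did not pass in APX3330 against Control (0.15 times the level, counting interval 0.0284 to 0.509, 3 counts against 19, adjusted p = 0.144) or in APX3330 against saline D27 (0.153 times, 0.0293 to 0.513, 3 counts against 21, adjusted p = 0.163). The other Ccl17 comparisons that did not pass had log2 fold changes between -1.84 and 0.87. Ccr4, their receptor on T cells, had 0.608, 0.267 and 0.67 CPM in the APX3330 libraries, 1.17, 0.551 and 0.558 at saline D27, 1.39, 1.27 and 2.32 at saline D48 and 1.06, 0.897 and 2.41 at saline D100, against 0.193, 0.365 and 0.2 CPM in Control. For Ccr4, all saline D27, saline D48 and saline D100 libraries lay above all Control libraries and the APX3330 libraries lay below all of saline D48 and saline D100. The highest Ccr4 library was saline D100 replicate 3. Ccr4 rose against Control at saline D48 (log2 fold change 2.69, SE 0.60, edgeR adjusted p = 0.003) and at saline D100 (2.49, SE 0.61, adjusted p = 0.00661). Ccr4 fell in APX3330 against saline D48 (log2 fold change -1.68, SE 0.55, edgeR adjusted p = 0.0392). Ccr4 lost the APX3330 against D48 call without any 1 APX3330 replicate or saline D48 replicates 1 or 3 (adjusted p = 0.055 to 0.16). Ccr4 had log2 fold changes between -1.48 and 1.58 in the comparisons where it did not pass. The summed dendritic cell markers, 6 genes of which 6 could be tested and 0 were at 0 in all libraries, ranged over 22.04 to 32.02 CPM with APX3330, 25.2 to 40.8 at saline D27, 41.6 to 70.96 at saline D48 and 37.1 to 41.3 at saline D100, against 18.3 to 23.7 CPM in Control. Of the 6, 1 rose at D27, 3 at D48, 1 at D100 and 0 in the APX3330 group against Control, and 2 fell in APX3330 against saline D48. Itgax was among those that rose in each saline group, alone at D27 and D100, and among those that fell. The part of dendritic cells in the Ccl22 level was not tested.

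Chemokines of lymphoid tissue reached their highest levels in saline D48 replicate 3. Of the 4 tested, 1 rose and 0 fell at D27, 3 rose and 0 fell at D48 and 0 rose and 0 fell at D100 against Control, and 0 rose and 3 fell in APX3330 against saline D48. Ccl21a, made by lymphatic endothelium and the stroma of lymphoid tissue, had 77.9, 73.1 and 64.3 CPM in the APX3330 libraries, 140.0, 146 and 103 at saline D27, 125, 139 and 268 at saline D48 and 97.6, 104 and 86.5 at saline D100, against 76.04, 66.97 and 73.3 CPM in Control. For Ccl21a, all saline D27, saline D48 and saline D100 libraries lay above all Control libraries and the APX3330 libraries lay below all of saline D27, saline D48 and saline D100. The highest Ccl21a library was saline D48 replicate 3. Ccl21a rose against Control at saline D27 (log2 fold change 0.85, SE 0.24, edgeR adjusted p = 0.0302) and at saline D48 (1.30, SE 0.24, adjusted p = 0.00221). Ccl21a fell in APX3330 against saline D27 (log2 fold change -0.85, SE 0.24, edgeR adjusted p = 0.0478), in APX3330 against saline D48 (-1.31, SE 0.24, adjusted p = 0.0035) and in saline D100 against saline D48 (-0.88, SE 0.24, adjusted p = 0.0309). Ccl21a lost the D27 against Control call without saline D27 replicates 1 or 2 or any 1 Control replicate (adjusted p = 0.0702 to 0.117), the APX3330 against D27 call without any 1 APX3330 replicate or saline D27 replicates 1 or 2 (adjusted p = 0.0715 to 0.159) and the D100 against D48 call without any 1 saline D100 replicate (adjusted p = 0.0667 to 0.11). Ccl21a had log2 fold changes between -0.43 and 0.45 in the comparisons where it did not pass. Ccl21a has near-identical copies, to which its reads may be split, so its level is uncertain. Ccr7, its receptor on naive T cells and mature dendritic cells, had 2.77, 1.93 and 2.48 CPM in the APX3330 libraries, 8.698, 12.9 and 6.95 at saline D27, 11.3, 4.798 and 24.4 at saline D48 and 6.08, 3.59 and 3.84 at saline D100, against 3.795, 3.65 and 3.46 CPM in Control. For Ccr7, all saline D27 and saline D48 libraries lay above all Control libraries, all APX3330 libraries lay below all Control libraries and the APX3330 libraries lay below all of saline D27, saline D48 and saline D100. The highest Ccr7 library was saline D48 replicate 3. Ccr7 rose against Control at saline D27 (log2 fold change 1.39, SE 0.44, edgeR adjusted p = 0.04) and at saline D48 (1.90, SE 0.44, adjusted p = 0.00571). Ccr7 fell in APX3330 against saline D27 (log2 fold change -1.99, SE 0.46, edgeR adjusted p = 0.0172), in APX3330 against saline D48 (-2.50, SE 0.46, adjusted p = 0.00203) and in saline D100 against saline D48 (-1.59, SE 0.44, adjusted p = 0.0262). Ccr7 lost the D27 against Control call without saline D27 replicates 1 or 2 or any 1 Control replicate (adjusted p = 0.0713 to 0.158), the APX3330 against D27 call without APX3330 replicates 2 or 3 or saline D27 replicate 2 (adjusted p = 0.064 to 0.0783) and the D100 against D48 call without saline D48 replicate 3 or saline D100 replicates 2 or 3 (adjusted p = 0.0987 to 0.137). Ccr7 had log2 fold changes between -1.08 and 0.51 in the comparisons where it did not pass.

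Ccl19, the other ligand of CCR7, ranged over 0.268 to 1.55 CPM in the APX3330 libraries, 0.868 to 5.096 at saline D27, 0.267 to 10.5 at saline D48 and 0.777 to 1.54 at saline D100, against 0.45 to 0.799 CPM in Control. Ccl19 passed in none of the 10 comparisons, with log2 fold changes between -2.58 and 2.86 by edgeR. Cxcl13, the B cell attractant of follicles, had 14.4, 11.4 and 7.23 CPM in the APX3330 libraries, 18.3, 16.4 and 15.01 at saline D27, 22.4, 12.8 and 40.8 at saline D48 and 12.6, 13.6 and 10.9 at saline D100, against 8.88, 10.2 and 9.72 CPM in Control. For Cxcl13, all saline D27, saline D48 and saline D100 libraries lay above all Control libraries and the APX3330 libraries lay below all of saline D27. The highest Cxcl13 library was saline D48 replicate 3. Cxcl13 rose against Control at saline D48 (log2 fold change 1.40, SE 0.33, edgeR adjusted p = 0.00655). Cxcl13 fell in APX3330 against saline D48 (log2 fold change -1.20, SE 0.33, edgeR adjusted p = 0.0205) and in saline D100 against saline D48 (-1.03, SE 0.32, adjusted p = 0.0495). Cxcl13 lost the APX3330 against D48 call without APX3330 replicates 2 or 3 or saline D48 replicate 3 (adjusted p = 0.0624 to 0.0833) and the D100 against D48 call without saline D48 replicates 1 or 3 or any 1 saline D100 replicate (adjusted p = 0.0761 to 0.216). Cxcl13 had log2 fold changes between -0.59 and 0.79 in the comparisons where it did not pass. Cxcr5, its receptor on B cells and follicular helper T cells, had 5.202, 4.73 and 3.89 CPM in the APX3330 libraries, 11.7, 17.3 and 7.505 at saline D27, 13.2, 3.998 and 38.8 at saline D48 and 6.64, 3.91 and 5.19 at saline D100, against 4.25, 3.798 and 5.92 CPM in Control. For Cxcr5, all saline D27 libraries lay above all Control libraries and the APX3330 libraries lay below all of saline D27. The highest Cxcr5 library was saline D48 replicate 3. Cxcr5 rose against Control at saline D48 (log2 fold change 2.00, SE 0.64, edgeR adjusted p = 0.0376). Cxcr5 fell in APX3330 against saline D48 (log2 fold change -2.02, SE 0.64, edgeR adjusted p = 0.0467). Cxcr5 lost the D48 against Control call without saline D48 replicate 3 or any 1 Control replicate (adjusted p = 0.0694 to 0.165) and the APX3330 against D48 call without any 1 APX3330 replicate or saline D48 replicates 1 or 3 (adjusted p = 0.0571 to 0.181). Cxcr5 had log2 fold changes between -1.83 and 1.38 in the comparisons where it did not pass.

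Cxcl12, made by stromal cells in most tissues, had 88.4, 77.5 and 68.3 CPM in the APX3330 libraries, 83.2, 65.6 and 75.3 at saline D27, 91.5, 92.03 and 123 at saline D48 and 76.02, 89.7 and 75.6 at saline D100, against 82.02, 74.8 and 70.2 CPM in Control. For Cxcl12, all saline D48 libraries lay above all Control libraries and the APX3330 libraries lay below all of saline D48. The highest Cxcl12 library was saline D48 replicate 3. Cxcl12 rose against Control at saline D48 (log2 fold change 0.43, SE 0.13, edgeR adjusted p = 0.0176). Cxcl12 fell in APX3330 against saline D48 (log2 fold change -0.39, SE 0.13, edgeR adjusted p = 0.0407). Cxcl12 lost the D48 against Control call without saline D48 replicate 3 or Control replicates 2 or 3 (adjusted p = 0.0506 to 0.129) and the APX3330 against D48 call without APX3330 replicates 2 or 3 or saline D48 replicate 3 (adjusted p = 0.105 to 0.241). Cxcl12 had log2 fold changes between -0.34 and 0.45 in the comparisons where it did not pass. The summed blood endothelium markers, 5 genes all tested and none at 0 in all libraries, ranged over 207 to 275 CPM with APX3330, 176 to 217 at saline D27, 265 to 312 at saline D48 and 188 to 239 at saline D100, against 191 to 215 CPM in Control. All 5 rose at saline D48 against Control, and 3 fell in APX3330 against saline D48. The summed fibroblast markers, 6 genes all tested and none at 0 in all libraries, ranged over 1775 to 2095 CPM with APX3330, 2032 to 2483 at saline D27, 3233 to 3691 at saline D48 and 1916 to 2052 at saline D100, against 2974 to 3510 CPM in Control. Of the 6, 1 rose and 0 fell at saline D48 against Control. At saline D27, at saline D100 and with APX3330, 0 rose and 5 fell against Control. In saline D48 against saline D27, 3 rose and 0 fell. In APX3330 and in saline D100 against saline D48, 0 rose and 4 fell. The part of stromal and endothelial cells in the Cxcl12 level was not tested. Cxcr4, its receptor on most leukocytes, had 10.6, 18.6 and 13.1 CPM in the APX3330 libraries, 24.6, 26.03 and 16.4 at saline D27, 27.3, 19.6 and 52.6 at saline D48 and 17.2, 22.2 and 29.7 at saline D100, against 7.65, 10.96 and 6.92 CPM in Control. For Cxcr4, all saline D27, saline D48 and saline D100 libraries lay above all Control libraries and the APX3330 libraries lay below all of saline D48. The highest Cxcr4 library was saline D48 replicate 3. Cxcr4 rose against Control at saline D27 (log2 fold change 1.39, SE 0.37, edgeR adjusted p = 0.0219), at saline D48 (1.97, SE 0.37, adjusted p = 0.00234) and at saline D100 (1.44, SE 0.37, adjusted p = 0.016). Cxcr4 fell in APX3330 against saline D48 (log2 fold change -1.24, SE 0.36, edgeR adjusted p = 0.0317). Cxcr4 lost the D27 against Control call without saline D27 replicates 1 or 2 or Control replicates 1 or 3 (adjusted p = 0.0625 to 0.0814), the D100 against Control call without saline D100 replicate 3 or Control replicates 1 or 3 (adjusted p = 0.062 to 0.0654) and the APX3330 against D48 call without APX3330 replicates 1 or 3 or saline D48 replicate 3 (adjusted p = 0.0984 to 0.104). Cxcr4 had log2 fold changes between -0.71 and 0.73 in the comparisons where it did not pass. The summed B cell and follicle markers, 7 genes of which 7 could be tested and 0 were at 0 in all libraries, ranged over 67.7 to 97.1 CPM with APX3330, 151 to 302 at saline D27, 75.6 to 573 at saline D48 and 79.5 to 119 at saline D100, against 65.7 to 74.02 CPM in Control. Saline D48 replicate 3 had the highest sum and saline D48 replicate 2 the lowest of its group. Of the 7, 5 rose at D48 and 2 at D27 against Control, and 2 fell in APX3330 against saline D48. The summed lymphatic endothelium markers, 4 genes of which 4 could be tested and 0 were at 0 in all libraries, ranged over 82.8 to 112 CPM with APX3330, 85.5 to 103 at saline D27, 117 to 139 at saline D48 and 82.2 to 104 at saline D100, against 94.4 to 101 CPM in Control. Of the 4, 2 rose at saline D48 against Control, and 2 fell in APX3330 against saline D48. How far the amount of lymphoid tissue in a sample sets Ccl21a, Ccl19, Cxcl13, Ccr7 and Cxcr5 was not tested.

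**Figure D4:**
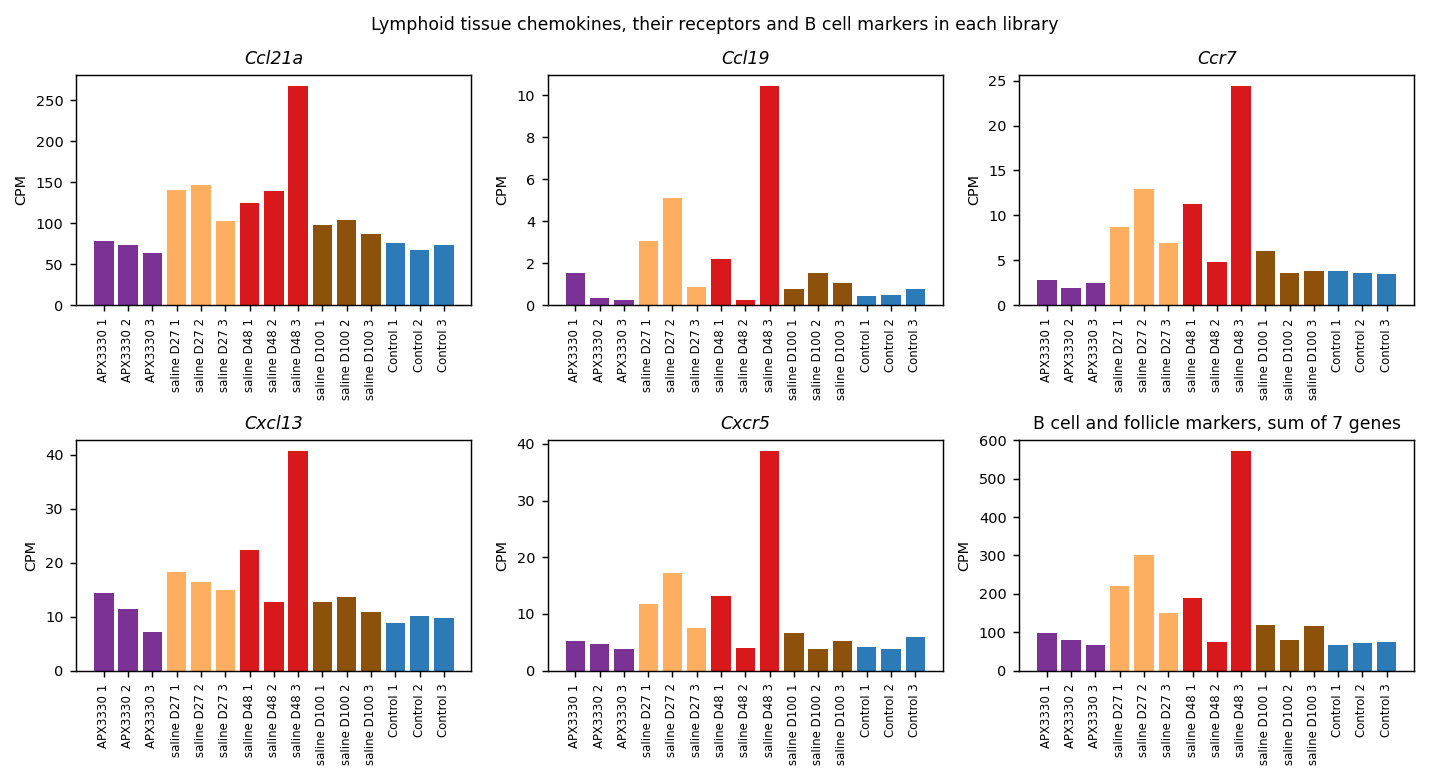
CPM of Ccl21a, Ccl19, Ccr7, Cxcl13 and Cxcr5 and the summed CPM of 7 B cell and follicle markers in each of the 15 libraries (bars, coloured by group, APX3330 at the left and Control at the right). Saline D48 replicate 3 has the tallest bar in every panel, and saline D27 replicate 2 is above the other saline D27 libraries in every panel but that of Cxcl13.

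A pair of epithelial chemokines fell against Control where most called genes rose. Ccl28 fell at saline D27 and D48 and was higher with APX3330 than in both, and Cx3cl1 fell at saline D100 and with APX3330. Ccl28, a mucosal ligand that draws IgA plasma cells, had 205, 247 and 235 CPM in the APX3330 libraries, 145, 116 and 156 at saline D27, 169, 138 and 140.0 at saline D48 and 214, 158 and 179 at saline D100, against 195, 220.3 and 179 CPM in Control. For Ccl28, all saline D27 and saline D48 libraries lay below all Control libraries and the APX3330 libraries lay above all of saline D27 and saline D48. The highest Ccl28 library was APX3330 replicate 2. Ccl28 fell against Control at saline D27 (log2 fold change -0.51, SE 0.13, edgeR adjusted p = 0.0121) and at saline D48 (-0.41, SE 0.13, adjusted p = 0.0277). Ccl28 rose in APX3330 against saline D27 (log2 fold change 0.72, SE 0.13, edgeR adjusted p = 0.00526) and in APX3330 against saline D48 (0.62, SE 0.13, adjusted p = 0.00353). Ccl28 lost the D27 against Control call without saline D27 replicate 2 or Control replicate 2 (adjusted p = 0.0596 to 0.0772) and the D48 against Control call without saline D48 replicates 2 or 3 or Control replicates 1 or 2 (adjusted p = 0.0593 to 0.121). Ccl28 had log2 fold changes between -0.11 and 0.40 in the comparisons where it did not pass. Ccr10, its receptor on IgA plasma cells, had 3.72, 5.401 and 3.68 CPM in the APX3330 libraries, 8.31, 8.33 and 3.47 at saline D27, 12.2, 7.06 and 6.39 at saline D48 and 4.38, 4.62 and 6.77 at saline D100, against 3.15, 4.82 and 2.66 CPM in Control. For Ccr10, all saline D48 libraries lay above all Control libraries and the APX3330 libraries lay below all of saline D48. The highest Ccr10 library was saline D48 replicate 1. Ccr10 rose against Control at saline D48 (log2 fold change 1.27, SE 0.35, edgeR adjusted p = 0.0118). Ccr10 lost the D48 against Control call without saline D48 replicate 1 or Control replicate 3 (adjusted p = 0.0593 to 0.0719). Ccr10 had log2 fold changes between -0.9985 and 0.92 in the comparisons where it did not pass. The summed plasma cell markers, 5 genes of which 5 could be tested and 0 were at 0 in all libraries, ranged over 3102 to 5058 CPM with APX3330, 4494 to 7747 at saline D27, 7047 to 11051 at saline D48 and 5712 to 8094 at saline D100, against 1508 to 1984 CPM in Control. All 5 rose at D27, D48 and D100 and 3 in the APX3330 group against Control. The part of plasma cells in the Ccr10 level was not tested.

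Cx3cl1, a membrane-bound ligand of epithelium and endothelium, had 84.6, 92.4 and 113 CPM in the APX3330 libraries, 147, 119 and 137 at saline D27, 162, 141 and 128 at saline D48 and 84.8, 98.5 and 86.4 at saline D100, against 132, 141 and 126 CPM in Control. For Cx3cl1, all APX3330 and saline D100 libraries lay below all Control libraries and the APX3330 libraries lay below all of saline D27 and saline D48. The highest Cx3cl1 library was saline D48 replicate 1. Cx3cl1 fell against Control at saline D100 (log2 fold change -0.57, SE 0.12, edgeR adjusted p = 0.0022) and with APX3330 (-0.46, SE 0.12, adjusted p = 0.0134). Cx3cl1 fell in APX3330 against saline D27 (log2 fold change -0.48, SE 0.12, edgeR adjusted p = 0.0189), in APX3330 against saline D48 (-0.57, SE 0.12, adjusted p = 0.00277), in saline D100 against saline D27 (-0.58, SE 0.12, adjusted p = 0.0153) and in saline D100 against saline D48 (-0.68, SE 0.12, adjusted p = 0.00136). Cx3cl1 lost the APX3330 against Control call without APX3330 replicates 1 or 2 (adjusted p = 0.0545 to 0.0549), the APX3330 against D27 call without APX3330 replicates 1 or 2 or saline D27 replicate 1 (adjusted p = 0.0502 to 0.0898) and the D100 against D27 call without saline D27 replicate 1 or saline D100 replicates 1 or 3 (adjusted p = 0.052 to 0.0694). Cx3cl1 had log2 fold changes between 0.02 and 0.11 in the comparisons where it did not pass. Cx3cr1, its receptor on intestinal macrophages, had 18.4, 11.9 and 12.8 CPM in the APX3330 libraries, 17.01, 10.5 and 14.1 at saline D27, 22.2, 16.3 and 19.7 at saline D48 and 15.05, 14.999 and 32.7 at saline D100, against 8.49, 11.1 and 9.79 CPM in Control. For Cx3cr1, all APX3330, saline D48 and saline D100 libraries lay above all Control libraries. The highest Cx3cr1 library was saline D100 replicate 3. Cx3cr1 rose against Control at saline D48 (log2 fold change 0.99, SE 0.28, edgeR adjusted p = 0.0182) and at saline D100 (1.09, SE 0.29, adjusted p = 0.0128). Cx3cr1 lost the D48 against Control call without saline D48 replicate 1 or Control replicates 1 or 3 (adjusted p = 0.0551 to 0.0713) and the D100 against Control call without saline D100 replicate 3 or Control replicate 1 (adjusted p = 0.0582 to 0.0813). Cx3cr1 had log2 fold changes between -0.54 and 0.59 in the comparisons where it did not pass.

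Cxcl16, a transmembrane ligand that is also a scavenger receptor, had 12.6, 14.5 and 10.9 CPM in the APX3330 libraries, 25.9, 18.8 and 15.6 at saline D27, 27.9, 27.5 and 32.8 at saline D48 and 16.3, 19.999 and 24.6 at saline D100, against 14.1, 14.5 and 13.4 CPM in Control. For Cxcl16, all saline D27, saline D48 and saline D100 libraries lay above all Control libraries and the APX3330 libraries lay below all of saline D27, saline D48 and saline D100. The highest Cxcl16 library was saline D48 replicate 3. Cxcl16 rose against Control at saline D48 (log2 fold change 1.07, SE 0.18, edgeR adjusted p = 0.000414) and at saline D100 (0.53, SE 0.18, adjusted p = 0.0453). Cxcl16 fell in APX3330 against saline D27 (log2 fold change -0.67, SE 0.18, edgeR adjusted p = 0.031) and in APX3330 against saline D48 (-1.21, SE 0.18, adjusted p = 0.000317). Cxcl16 lost the D100 against Control call without saline D100 replicates 2 or 3 or any 1 Control replicate (adjusted p = 0.0791 to 0.238) and the APX3330 against D27 call without APX3330 replicates 1 or 3 or saline D27 replicates 1 or 2 (adjusted p = 0.0505 to 0.184). Cxcl16 had log2 fold changes between -0.68 and 0.55 in the comparisons where it did not pass. Cxcr6, its receptor on tissue-resident T cells and innate lymphocytes, had 2.03, 1.8003 and 2.21 CPM in the APX3330 libraries, 5.799, 2.34 and 3.35 at saline D27, 3.57, 3.67 and 6.91 at saline D48 and 3.82, 3.205 and 3.61 at saline D100, against 0.836, 0.876 and 0.666 CPM in Control. For Cxcr6, all APX3330, saline D27, saline D48 and saline D100 libraries lay above all Control libraries and the APX3330 libraries lay below all of saline D27, saline D48 and saline D100. The highest Cxcr6 library was saline D48 replicate 3. Cxcr6 rose against Control at saline D27 (log2 fold change 2.27, SE 0.38, edgeR adjusted p = 0.000708), at saline D48 (2.56, SE 0.38, adjusted p = 0.000119), at saline D100 (2.15, SE 0.38, adjusted p = 0.000609) and with APX3330 (1.34, SE 0.39, adjusted p = 0.0258). Cxcr6 fell in APX3330 against saline D48 (log2 fold change -1.23, SE 0.35, edgeR adjusted p = 0.0191). Cxcr6 lost the APX3330 against Control call without APX3330 replicate 3 or any 1 Control replicate (adjusted p = 0.0509 to 0.0882) and the APX3330 against D48 call without APX3330 replicate 2 or saline D48 replicate 3 (adjusted p = 0.0701 to 0.134). Cxcr6 had log2 fold changes between -0.93 and 0.30 in the comparisons where it did not pass. Cxcl14, a ligand made by epithelium and stroma, had 22.8, 12.9 and 14.8 CPM in the APX3330 libraries, 29.4, 32.3 and 16.2 at saline D27, 22.8, 31.8 and 22.1 at saline D48 and 24.2, 33.5 and 33.6 at saline D100, against 14.5, 9.71 and 14.3 CPM in Control. For Cxcl14, all saline D27, saline D48 and saline D100 libraries lay above all Control libraries and the APX3330 libraries lay below all of saline D100. The highest Cxcl14 library was saline D100 replicate 3. Cxcl14 rose against Control at saline D27 (log2 fold change 1.01, SE 0.28, edgeR adjusted p = 0.0208), at saline D48 (0.99, SE 0.28, adjusted p = 0.0167) and at saline D100 (1.24, SE 0.28, adjusted p = 0.00562). Cxcl14 lost the D27 against Control call without saline D27 replicates 1 or 2 or Control replicate 2 (adjusted p = 0.0701 to 0.0952) and the D48 against Control call without saline D48 replicate 2 or Control replicate 2 (adjusted p = 0.0662 to 0.0667). Cxcl14 had log2 fold changes between -0.85 and 0.39 in the comparisons where it did not pass.

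Ccl25, the ligand that marks homing to the small intestine, had 5.81, 6.93 and 11.1 CPM in the APX3330 libraries, 6.91, 5.99 and 6.45 at saline D27, 9.26, 8.06 and 9.06 at saline D48 and 6.15, 7.88 and 10.7 at saline D100, against 7.27, 6.28 and 6.72 CPM in Control. For Ccl25, all saline D48 libraries lay above all Control libraries. The highest Ccl25 library was APX3330 replicate 3. Ccl25 passed in none of the 10 comparisons, with log2 fold changes between -0.14 and 0.45 by edgeR. Ccr9, its receptor on gut-homing lymphocytes, had 0.135, 0.667 and 0.938 CPM in the APX3330 libraries, 0.948, 1.38 and 1.18 at saline D27, 2.18, 0.933 and 4.297 at saline D48 and 0.848, 1.09 and 2.41 at saline D100, against 0.836, 0.584 and 0.799 CPM in Control. For Ccr9, all saline D27, saline D48 and saline D100 libraries lay above all Control libraries and the APX3330 libraries lay below all of saline D27. The highest Ccr9 library was saline D48 replicate 3. Ccr9 rose against Control at saline D48 (log2 fold change 1.73, SE 0.60, edgeR adjusted p = 0.0384). Ccr9 fell in APX3330 against saline D48 (log2 fold change -2.08, SE 0.61, edgeR adjusted p = 0.0236). Ccr9 lost the D48 against Control call without saline D48 replicates 1 or 3 or any 1 Control replicate (adjusted p = 0.0549 to 0.266) and the APX3330 against D48 call without APX3330 replicates 1 or 2 or saline D48 replicate 3 (adjusted p = 0.0594 to 0.16). Ccr9 had log2 fold changes between -1.30 and 1.09 in the comparisons where it did not pass. Ccl20, made by follicle-associated epithelium, had 6.55, 3.67 and 4.22 CPM in the APX3330 libraries, 3.96, 2.82 and 4.09 at saline D27, 5.95, 3.93 and 6.68 at saline D48 and 4.87, 4.74 and 3.54 at saline D100, against 1.93, 4.46 and 7.06 CPM in Control. For Ccl20, each group overlapped Control. The highest Ccl20 library was Control replicate 3. Ccl20 passed in none of the 10 comparisons, with log2 fold changes between -0.33 and 0.60 by edgeR. Ccr6, its receptor on B cells, dendritic cells and helper T cells, had 0.811, 1.0002 and 0.402 CPM in the APX3330 libraries, 1.28, 1.24 and 1.799 at saline D27, 2.12, 0.933 and 3.31 at saline D48 and 0.918, 0.641 and 1.35 at saline D100, against 0.579, 0.073 and 0.399 CPM in Control. For Ccr6, all saline D27, saline D48 and saline D100 libraries lay above all Control libraries and the APX3330 libraries lay below all of saline D27. The highest Ccr6 library was saline D48 replicate 3. Ccr6 rose against Control at saline D27 (log2 fold change 1.99, SE 0.61, edgeR adjusted p = 0.0302) and at saline D48 (2.55, SE 0.61, adjusted p = 0.00481). Ccr6 lost the D27 against Control call without any 1 saline D27 replicate or Control replicates 2 or 3 (adjusted p = 0.0553 to 0.105). Ccr6 had log2 fold changes between -1.52 and 1.42 in the comparisons where it did not pass. Ccl27a, known as a skin chemokine, ranged over 3.22 to 4.801 CPM in the APX3330 libraries, 3.401 to 4.71 at saline D27, 3.24 to 4.33 at saline D48 and 1.47 to 3.91 at saline D100, against 3.33 to 5.08 CPM in Control. Ccl27a passed in none of the 10 comparisons, with log2 fold changes between -0.50 and 0.39 by edgeR.

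Ackr4 was the only 1 of the 4 atypical receptors to pass with edgeR in any of the 10 comparisons. Ackr4, a scavenger of CCL19, CCL21 and CCL25, had 8.44, 13.2 and 8.17 CPM in the APX3330 libraries, 10.04, 10.4 and 15.3 at saline D27, 8.01, 4.13 and 5.34 at saline D48 and 7.28, 7.63 and 6.77 at saline D100, against 9.13, 13.9 and 12.2 CPM in Control. For Ackr4, all saline D48 and saline D100 libraries lay below all Control libraries and the APX3330 libraries lay above all of saline D48 and saline D100. The highest Ackr4 library was saline D27 replicate 3. Ackr4 fell against Control at saline D48 (log2 fold change -1.01, SE 0.26, edgeR adjusted p = 0.00771). Ackr4 rose in APX3330 against saline D48 (log2 fold change 0.77, SE 0.26, edgeR adjusted p = 0.0456). Ackr4 lost the APX3330 against D48 call without APX3330 replicate 2 or saline D48 replicates 2 or 3 (adjusted p = 0.127 to 0.234). Ackr4 had log2 fold changes between -1.03 and 0.46 in the comparisons where it did not pass. Ackr3, a scavenger of CXCL12, had 19.997, 22.4 and 20.97 CPM in the APX3330 libraries, 22.6, 18.8 and 27.7 at saline D27, 29.1, 28.3 and 26.1 at saline D48 and 29.7, 26.2 and 16.8 at saline D100, against 30.2, 23.8 and 29.02 CPM in Control. For Ackr3, all APX3330 libraries lay below all Control libraries and the APX3330 libraries lay below all of saline D48. The highest Ackr3 library was Control replicate 1. Ackr3 passed in none of the 10 comparisons, with log2 fold changes between -0.40 and 0.27 by edgeR. Ackr2, a scavenger of inflammatory CC chemokines, had 3.31, 1.47 and 3.89 CPM in the APX3330 libraries, 4.52, 3.92 and 3.16 at saline D27, 5.76, 5.26 and 6.504 at saline D48 and 4.38, 3.72 and 2.56 at saline D100, against 3.86, 5.33 and 2.13 CPM in Control. For Ackr2, each group overlapped Control and the APX3330 libraries lay below all of saline D48. The highest Ackr2 library was saline D48 replicate 3. Ackr2 passed in none of the 10 comparisons, with log2 fold changes between -1.02 and 0.63 by edgeR. Ackr1, a chemokine carrier of venules, had 2.97, 3.401 and 3.35 CPM in the APX3330 libraries, 3.29, 2.48 and 4.403 at saline D27, 5.29, 6.26 and 5.4005 at saline D48 and 4.03, 3.08 and 2.11 at saline D100, against 3.99, 2.78 and 4.93 CPM in Control. For Ackr1, all saline D48 libraries lay above all Control libraries and the APX3330 libraries lay below all of saline D48. The highest Ackr1 library was saline D48 replicate 2. Ackr1 passed in none of the 10 comparisons, with log2 fold changes between -0.88 and 0.73 by edgeR.

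Xcr1, the receptor of cross-presenting dendritic cells, ranged over 0.603 to 2.36 CPM in the APX3330 libraries, 0.558 to 1.39 at saline D27, 0.933 to 1.85 at saline D48 and 1.22 to 1.91 at saline D100, against 0.579 to 0.732 CPM in Control. Xcr1 passed in none of the 10 comparisons, with log2 fold changes between -0.20 and 1.25 by edgeR. The 13 genes with too few counts to test were Ccl1, Ccl3, Ccl4, Ccl21b, Ccl21d, Ccl26, Ccl27b, Ccr1l1, Ccr8, Cxcl15, Cxcl17, Cxcr1 and Xcl1. No count of Ccl21d or Ccl26 was found, and 3 counts, the limit that a count of 0 allows, correspond to 0.167 to 0.221 CPM in a library before TMM scaling. Ccl4, an attractant of monocytes and T cells, had the most counts of the 13 and ranged over 0 to 0.27 CPM with APX3330, 0.124 to 0.39 at saline D27, 0.581 to 1.65 at saline D48 and 0.128 to 0.376 at saline D100, against 0 to 0.257 CPM in Control. Ccl3, its neighbour, had 13 counts at saline D48 and 0 in Control. With the Control group set to the limit of 3 counts the ratio is 3.95, which leaves out the counting error of the 13. Ccl1, a ligand of CCR8, had the same counts in both groups and the same ratio. Of its 13 counts at saline D48, 10 were in replicate 2, which holds pancreas transcripts, at 0.666 CPM. Ccr8 ranged over 0 to 0.134 CPM with APX3330, 0.167 to 0.372 at saline D27, 0.348 to 0.533 at saline D48 and 0 to 0.283 at saline D100, against 0.0666 to 0.257 CPM in Control. No test was made on these genes.

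Levels differed between genes by orders of magnitude. Per kilobase of exon, the mean over the 15 libraries was 126 CPM for Ccl21a, 123 for Ccl6, 37.1 for Ccl28, 30.4 for Cx3cl1 and 29.3 for Ccl8, the 5 highest of the set on this scale. Among the receptors the highest were Cxcr4 at 11.2, Ackr3 at 7.41, Cx3cr1 at 3.48 and Ccr7 at 3.395 CPM per kilobase. Of the neutrophil ligands, Cxcl5 had 3.798, above Cx3cr1 and Ccr7, while Cxcl1 had 0.874, Cxcl2 0.468 and Cxcl3 0.139. Cxcr2 had 0.357 CPM per kilobase.

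Many of these genes lie side by side, and neighbours did not all move alike. Coordinates are from GENCODE M21 on GRCm38. Cxcl5 (chr5:90759360-90761624), Cxcl3, Cxcl1 and Cxcl2 (chr5:90903871-90905938) lie on the plus strand of chromosome 5, followed by Cxcl9, Cxcl10 and Cxcl11 on the minus strand, the last at chr5:92359544-92365485. On chromosome 11, Ccl2 (chr11:82035571-82037453), Ccl7, Ccl11, Ccl12 and Ccl8 (chr11:82115185-82116799) lie in that order on the plus strand. There Ccl12 had a log2 fold change of 0.28 (edgeR adjusted p = 0.827) at saline D100 against Control while its neighbour Ccl8 had 3.55 (adjusted p = 0.000256), and the difference between them was not tested. Ccl5, Ccl9 and Ccl6 (chr11:83587882-83593087) lie further along on the minus strand. The receptors Ccr9, Cxcr6, Xcr1, Ccr1, Ccr3 and Ccr2 run from 123678439 to 124113557 on chromosome 9. How the counting treated strand is not given in the sources used here, so reads of Cxcl10 and Cxcl11 cannot be told apart from those of Art3, nor those of Cxcl16 from Zmynd15, Ccr10 from Cntnap1, Cxcr5 from Bcl9l, Cxcr6 from Fyco1, Ccl2 from Gm17268, Ccl6 from E230016K23Rik or Ackr4 from Acad11, where these genes overlap. The same holds for Ccl19 and Ccl21a with 4930578G10Rik, Ccl25 with Elavl1, Ccl27a with Il11ra1 and Ackr1 with Cadm3, for Ccr9 with Slc6a20a and Lztfl1 among others, and for Cx3cr1 with Wdr48 and Ttc21a among others.

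**Figure D5:**
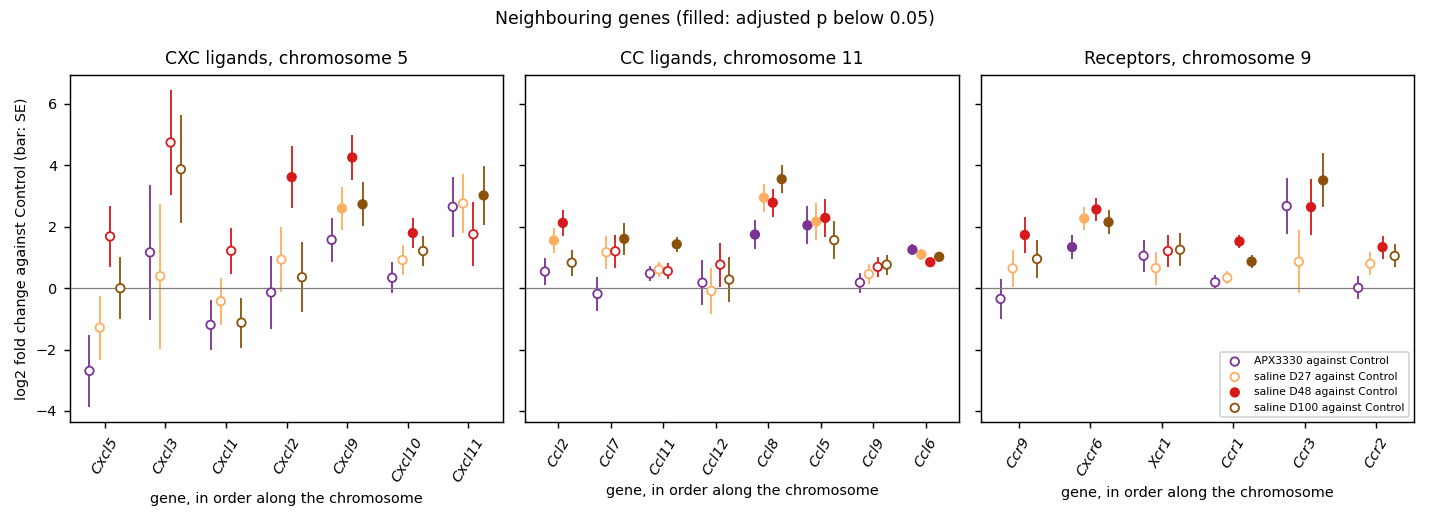
Log2 fold changes against Control (points, with SE bars) of neighbouring genes in their order along chromosomes 5, 11 and 9, for APX3330, saline D27, saline D48 and saline D100, filled where the adjusted p was below 0.05. On chromosome 11 Ccl8 is filled in all 4 groups between Ccl12, filled in none, and Ccl5, and on chromosome 9 Cxcr6 is filled in all 4 groups.

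Among genes that carry the signal of chemokine receptors, more rose than fell against Control in all 4 groups. Of 22 such genes, chosen with earlier results of these data known, 9 rose and 2 fell at saline D27, 13 rose and 2 fell at saline D48, 8 rose and 2 fell at saline D100, and 4 rose and 1 fell in the APX3330 group against Control. Of all genes, 9.87%, 13.9%, 11.2% and 6.89% rose and 9.09%, 12.7%, 10.4% and 7.85% fell in those comparisons. Those that rose include genes used mainly by leukocytes, such as Dock2, Rac2, Was, Pik3cg and Pik3r5, and leukocyte markers rose beside them, at saline D48 all 7 T cell markers and 9 of 10 monocyte and macrophage markers. The part of leukocyte numbers in these genes was not tested. At saline D48 the smallest p-values were those of Pik3r5 (log2 fold change 1.88, SE 0.22, edgeR adjusted p = 1.65e-05) and Pik3cg (log2 fold change 1.41, SE 0.19, edgeR adjusted p = 5.19e-05), subunits of the phosphoinositide kinase of leukocytes, and Arrb2 (log2 fold change 1.68, SE 0.20, edgeR adjusted p = 2.46e-05), an arrestin that ends receptor signalling. Plcb3, a phospholipase of many cell types, fell against Control in all 4 groups, at saline D48 with log2 fold change -0.36, SE 0.11, edgeR adjusted p = 0.0175. In APX3330 against saline D48, 10 of the 22 fell and 1 rose, led by Ptk2b (log2 fold change -0.60, SE 0.10, edgeR adjusted p = 0.000801) and Gnai2 (log2 fold change -0.53, SE 0.09, edgeR adjusted p = 0.000924), the inhibitory G protein subunit of these receptors, and the gene that rose was Gnai3 (log2 fold change 0.44, SE 0.09, edgeR adjusted p = 0.00287). Against saline D27, 2 fell and 1 rose with APX3330, and against saline D100 none passed. Of all genes, 9.85%, 4.26% and 0.194% fell with APX3330 against saline D48, D27 and D100, and 9.27%, 4.82% and 0.36% rose. The median log2 fold change of the 22 was 0.42 at saline D48 against Control and -0.45 in APX3330 against saline D48.

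Of 6 related genes outside the naming rule, Cmklr1, the chemerin receptor, rose at saline D48 against Control (log2 fold change 0.62, SE 0.20, edgeR adjusted p = 0.0295), and Cmklr1 and Rarres2, which encodes chemerin, fell in APX3330 against saline D48 (log2 fold change -0.87, SE 0.20, edgeR adjusted p = 0.00684 for Cmklr1, and log2 fold change -0.66, SE 0.19, edgeR adjusted p = 0.0224 for Rarres2). Of 5 tested peptidases and binding partners, Sdc4, a syndecan, fell against Control in all 4 groups, at saline D48 with log2 fold change -0.53, SE 0.10, edgeR adjusted p = 0.00062. Mmp9, a protease of neutrophils and macrophages, rose at saline D48 against Control (log2 fold change 2.42, SE 0.36, edgeR adjusted p = 0.000118) and fell in APX3330 against saline D48 (log2 fold change -1.80, SE 0.34, edgeR adjusted p = 0.00166). Dpp4, the peptidase that trims CXCL10 and CXCL12, rose in APX3330 against saline D48 (log2 fold change 0.35, SE 0.12, edgeR adjusted p = 0.0483).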

How the data were processed

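The deposited table holds whole-number read counts per gene made by the authors, with GRCm38 and mm10 as the builds, per the submitters' processing notes. Which aligner and counter were used, and whether strand was, is not given in the sources used here. RNA was total RNA made into libraries with a SMARTER mRNA kit, per the labels' protocols. From these counts, edgeR 4.0.16 in R 4.3.3 kept 18038 genes with filterByExpr (minimum count 10), scaled by TMM and fitted all 15 libraries together, which then share 1 estimate of spread. Quasi-likelihood tests compared the groups in 10 pairs, two-sided, and all 5 at once by an F test, with Benjamini-Hochberg adjustment over all genes tested and a threshold of 0.05. CPM uses TMM library sizes, and SE is that of the log2 fold change. The smallest exact permutation p that 3 libraries against 3 allow is 0.1, so none was computed. Intervals on counts are exact at 95% and, like floors of 3 counts, cover counting error only.

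1 gene of the set is included in the counts and medians but is not reported here. The members and all gene lists were chosen with earlier results of these data known. Genes averaging at least 5 CPM in some group, and called genes averaging at least 1 CPM, are given in every library, and the others by their range. Genes singled out beyond that rule were chosen after their values were seen. No 2 libraries of a group agreed within sampling noise (chi-square per degree of freedom 9.16 to 76.2). Tested on simulated data for saline D48 against Control over 18038 genes, the fit recovered 54% of 2-fold and 86% of 4-fold changes. The changed genes were drawn at random from all those tested, with a spread set by the trend over level. The rates are therefore not those of the genes described here. Locations are from GENCODE M21 and upstream sequences from RefSeq, for 47 of the 62 genes. Alternatives were DESeq2 1.42.0, limma 3.58.1 (voom), other scalings and filters, fits of 2 groups, a replicate block, and libraries left out.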

Additional observations from a re-analysis of the deposited data

How the results depend on the processing

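Of 1617 recomputed values for the 108 called changes, 1185 kept the direction and the call, 432 kept the direction and lost the call, and 0 turned direction. Under every setting other than leaving libraries out, 60 of the 108 remained called, and 41 did in every fit without 1 library. Counts of called genes moved by over 1.5 times as follows. Without the 3 libraries with the most squamous transcripts, which leaves 1 Control library, they were 0 for saline D27, 7 for saline D48, 5 for saline D100 and 1 for APX3330 against Control, 2 for saline D48 against D27, 0 for saline D100 against D27 and 20 for the F test. Without those with pancreas transcripts, which leaves 1 saline D48 library, they were 17 for saline D48 against Control, 12 for APX3330 against saline D48, 0 for saline D48 against D27, 3 for saline D100 against D27 and 5 for saline D100 against D48. With limma voom the counts were 3 for APX3330 against Control, 9 for APX3330 against saline D27, 4 for saline D48 against D27 and 3 for saline D100 against D27. Over all genes voom gave 2727, 3122, 417 and 1894 calls there, against 2658, 1637, 258 and 635 in the fit reported above. DESeq2 gave 5 for APX3330 against saline D100, 3 for saline D48 against D27 and 3 for saline D100 against D27. Its calls over all genes were 428, 671 and 1126, against 100, 258 and 635 in the fit reported above. Without a filter they were 2 for APX3330 against saline D100, 3 for saline D48 against D27, 3 for saline D100 against D27 and 5 for saline D100 against D48. Calls over all genes were then 239, 461, 762 and 2247, against 100, 258, 635 and 2491 in the fit reported above. Fitting only the 2 groups, with fewer libraries to estimate spread, gave 14 for APX3330 against saline D48, 3 for saline D48 against D27, 4 for saline D100 against D27 and 3 for saline D100 against D48. Those fits called 2034, 135, 570 and 2034 of all genes, against 3449, 258, 635 and 2491 in the fit reported above. Other causes were not tested. The replicate block gave 1 for APX3330 against saline D100, but the numbers only name libraries, since 2 of 30 pairs with the same number had deviations correlated above 0.1 and 3 of 15 libraries lay closest to their own number.

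Leaving out 1 library gave 6 to 14 calls for saline D27, 21 to 29 for saline D48, 11 to 18 for saline D100 and 2 to 4 for APX3330 against Control. It gave 2 to 6, 10 to 24 and 0 to 0 for APX3330 against saline D27, D48 and D100. It gave 0 to 2 for saline D48 against D27, 0 to 1 for saline D100 against D27, 1 to 10 for saline D100 against D48 and 25 to 35 for the F test. The same fits called 3441 to 4298 of all genes, against 4802 with all libraries, for saline D48 against Control. They called 16 to 84, against 100, for APX3330 against saline D100 and 5260 to 6931, against 6654, for the F test. Genes near 1 CPM rest on few counts per library, which limits what could be called for the low receptors and ligands, and the 13 untested genes allow no statement on change.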
